A study of Triticum aestivum with 18 samples.

Results

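The 84 wheat probe sets described here read lower in roots grown with little nitrogen than on any array of the other 5 fertiliser groups. They were chosen by their values: the highest of the 3 low nitrogen arrays lay below the lowest of the 15 other arrays, the low nitrogen mean on the log2 scale was at least 1.0 below the mean of those 15, and the linear mean of the 15 was 200 or more. Of the 61179 wheat probe sets on the array, 84 (0.137%) met all 3 conditions. Roots of the winter wheat cultivar Hereward (Triticum aestivum) were dug at booting, the stage before the ear emerges, in the long-running Broadbalk field experiment, on land under wheat every year. The groups were low nitrogen, no potassium, no magnesium, no phosphate and no sulfate, and a control with optimal nutrient supply, with 3 arrays each and 1 root sample per array. By the labels, N, P, K and Mg fertiliser had been withheld since 1843 and S since 2000. The labels call the nitrogen group low and the other deficient groups without the nutrient. The number of plots behind each group is not given in the sources used here, so the p-values below may measure only the spread inside a plot, and a plot's own soil cannot be told apart from its treatment.

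Roots take up nitrogen mostly as nitrate and ammonium. Nitrate is reduced in the cytosol by nitrate reductase and in plastids by nitrite reductase, and the ammonium formed is built into glutamine and glutamate by glutamine synthetase and glutamate synthase. In plants in general, many genes of nitrate transport and reduction are switched on by nitrate itself, while some high-affinity transporters are switched on by nitrogen shortage. The array's annotation pairs few probe sets with a gene: 1273 of the wheat probe sets had 1 gene and 59906 had none. Among the 84, 4 had a gene and 80 had none, so most are given by their array identifier and no function is assigned to them. None of the 7 lists drawn up for nitrogen transport, reduction, assimilation and signalling matched a named gene on the array (0 genes in each), so the nitrogen pathway could not be followed by name. Lists were matched on gene symbols and synonyms only, so a gene of this pathway that carries only a number would be missed.

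The values are MAS5 intensities, a linear scale of hybridisation signal, and their trimmed mean was 500.1 on every array. Median intensities of the arrays ran from 60.1 to 61.1 in low nitrogen roots and from 53.3 to 72.4 over all 18. The 5′ to 3′ ratio of the ubiquitin control, a sign of RNA integrity, was 1.23 to 1.31 in low nitrogen roots and 1.09 to 1.32 over all arrays, with the no phosphate arrays at 1.09 to 1.12. The same ratio of the G6PDH control was 0.0601 to 0.0710 in low nitrogen roots, against 0.0371 to 0.0681 on the other arrays, and the middle to 3′ ratio of the sucrose synthase control was 0.0928 to 0.104 in low nitrogen roots, against 0.0569 to 0.116. The part of array quality in the results below was not tested. All 84 probe sets also passed the filter used for testing, which kept the 34255 wheat probe sets at or above the array median on at least 3 of 18 arrays.

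Of all wheat probe sets, 575 (0.94%) had every low nitrogen array below every other array. Adding the size condition left 173 (0.283%), and adding the floor on intensity left 84. A further 83 probe sets met the size and the floor but had at least 1 other array at or below a low nitrogen array. The same 3 conditions, applied to each other group in turn, gave 4 probe sets for no potassium, 0 for no magnesium, 114 for no phosphate, 1 for no sulfate and 0 for the control. The edge of the selection was not a gap in the data. The 3 smallest differences inside it were 1.0002, 1.011 and 1.0281 log2 below the other arrays, and the nearest outside were 0.99903, 0.99216 and 0.98951. The dimmest probe sets inside averaged 210.3, 211 and 213 on the other 15 arrays, against 198, 193 and 179 just outside. The narrowest separations inside were 0.0084, 0.0117 and 0.0246 log2, while the nearest outside were -0.0243, -0.0339 and -0.0416, where 1 or 2 other arrays lay under the highest low nitrogen array.

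The differences between low nitrogen and the mean of the other 15 arrays ran from -5.43 to -1.0002 log2, with a median of -1.53. In 40 probe sets the difference lay between 1 and 1.5 log2, in 23 it was at least 2 and in 8 at least 3. These values chose the members and carry no test. The low nitrogen arrays were alike: over the 84 probe sets the median deviation from the other 15 arrays was -1.51, -1.53 and -1.45 log2 in arrays 1, 2 and 3, against -0.32 to 0.45 on the 15 other arrays. The lowest of the 3 was array 1 in 38 probe sets, array 2 in 27 and array 3 in 19. The range over the 3 low nitrogen arrays had a median of 0.39 log2 and reached 3.19 in TaAffx.115546.1.S1_at. A lower signal in whole roots may come from fewer cells of a type or from less RNA per cell, and these cannot be told apart.

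**Figure D1:**
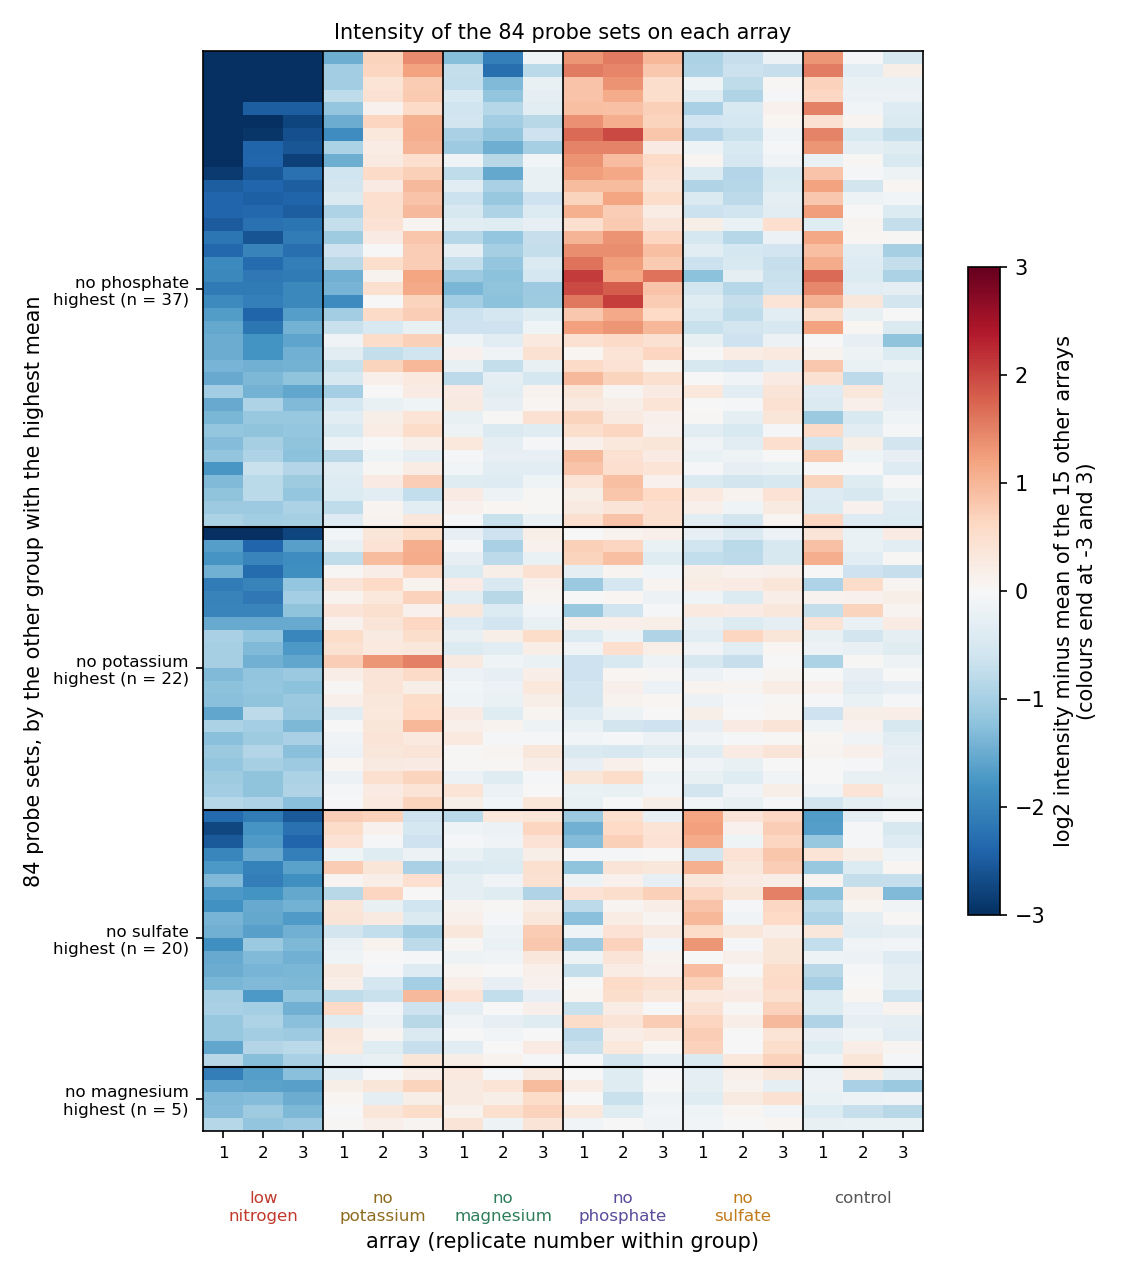
Intensity of the 84 probe sets (rows) on the 18 arrays (columns), as log2 difference from the mean of the 15 arrays other than low nitrogen, with colours ending at -3 and 3. Rows are grouped by the other group with the highest mean and ordered within each by the low nitrogen difference. The low nitrogen columns are blue throughout, as the rule requires, and the rows where no phosphate was highest (37) also have blue cells in potassium array 1 and magnesium array 2.

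The separation between the highest low nitrogen array and the lowest other array had a median of 0.52 log2. It was over 1 log2 in 12 probe sets and under 0.1 in 11. The lowest of the 15 other arrays was magnesium array 2 in 18 probe sets, potassium array 1 in 16, phosphate array 1 in 11, control array 1 in 11 and control array 3 in 9. In the other 15 arrays the probe sets averaged 210.3 to 25523, with a median of 1184, and 48 of them averaged over 1000. In 74 probe sets every low nitrogen array stayed at or above its own array's median intensity, in 6 it was below on 1 or 2 arrays, and in 4 on all 3. Detection calls were not used here, so in those last 4 probe sets (Ta.4360.1.A1_at, TaAffx.115546.1.S1_at, TaAffx.11942.1.A1_at and Ta.14013.1.S1_at) the low nitrogen signal cannot be separated from background and the size of the difference is uncertain.

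The largest difference was that of Ta.13989.1.S1_at, 43.0-fold (-5.43 log2). In low nitrogen roots Ta.13989.1.S1_at read 107, 121 and 326. Readings elsewhere were 2536, 11130 and 18432 (no potassium), 2872, 1686 and 6356 (no magnesium), 17377, 20438 and 13804 (no phosphate), 3628, 4277 and 6184 (no sulfate) and 17300, 6645 and 4952 (control). The lowest array outside low nitrogen, magnesium array 2, was still several times the highest low nitrogen array, and within no potassium, no magnesium and the control the arrays differed among themselves by several fold. Ta.4360.1.A1_at gave 6.5, 7.86 and 9.17 under low nitrogen. The other groups gave 143, 466 and 687 without potassium, 179.8, 62.3 and 168 without magnesium, 873, 819.8 and 521 without phosphate, 160.0, 189.8 and 182 without sulfate and 861, 234 and 338 in the control. The 3 low nitrogen readings of this probe set were close to the bottom of the scale, and its mean difference was -5.26 log2. For Ta.4399.1.S1_x_at the low nitrogen arrays read 288, 433 and 495. Values elsewhere were 3192, 8730.5 and 11070 (no potassium), 3934, 2608 and 5612 (no magnesium), 11784, 16608 and 9508 (no phosphate), 5953, 3857 and 6737 (no sulfate) and 10487, 5707 and 5664 (control). Its difference was -4.05 log2, and as in the preceding probe sets no phosphate was the highest group and no magnesium the lowest of the other 5.

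Another 5 probe sets were at least 3 log2 lower. Ta.6744.1.S1_at read 381, 475 and 496 in low nitrogen roots. It read 3616, 8329.8 and 10542 without potassium, 4453, 2686 and 4976 without magnesium, 11090, 13225 and 8732 without phosphate, 4717, 3257 and 5960.0 without sulfate and 9324, 5428 and 5375 in the control. In low nitrogen roots Ta.6744.2.S1_s_at read 2269.9, 3021 and 3666. Readings elsewhere were 23512, 32313 and 36704 (no potassium), 20925, 16125 and 27983 (no magnesium), 24992, 26807 and 27872 (no phosphate), 21062, 18447 and 22088 (no sulfate) and 32753, 21645 and 29621 (control). Both carry the same cluster number in their identifiers, which groups probe sets designed from related sequences, and differed by -3.77 and -3.09 log2. The dimmer had its highest mean in no phosphate, and the brighter, the brightest of all 84, in no potassium. TaAffx.115546.1.S1_at read 4.7, 43 and 43 in low nitrogen roots, against 108 to 682 on the other arrays, a difference of -3.55 log2 that rests in part on array 1. Ta.9492.1.S1_at read 189.7, 333 and 391 in low nitrogen roots, against 947 to 6842 on the other arrays (-3.18 log2). Ta.6831.1.S1_at read 33.4, 50.9 and 62.4 in low nitrogen roots, against 106 to 1531 on the other arrays (-3.02 log2). For it, 2 low nitrogen arrays were below their own median intensity, so the size of this difference is uncertain. In each of these 3 probe sets, the other group with the highest mean was no phosphate and the one with the lowest was no magnesium.

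**Figure D2:**
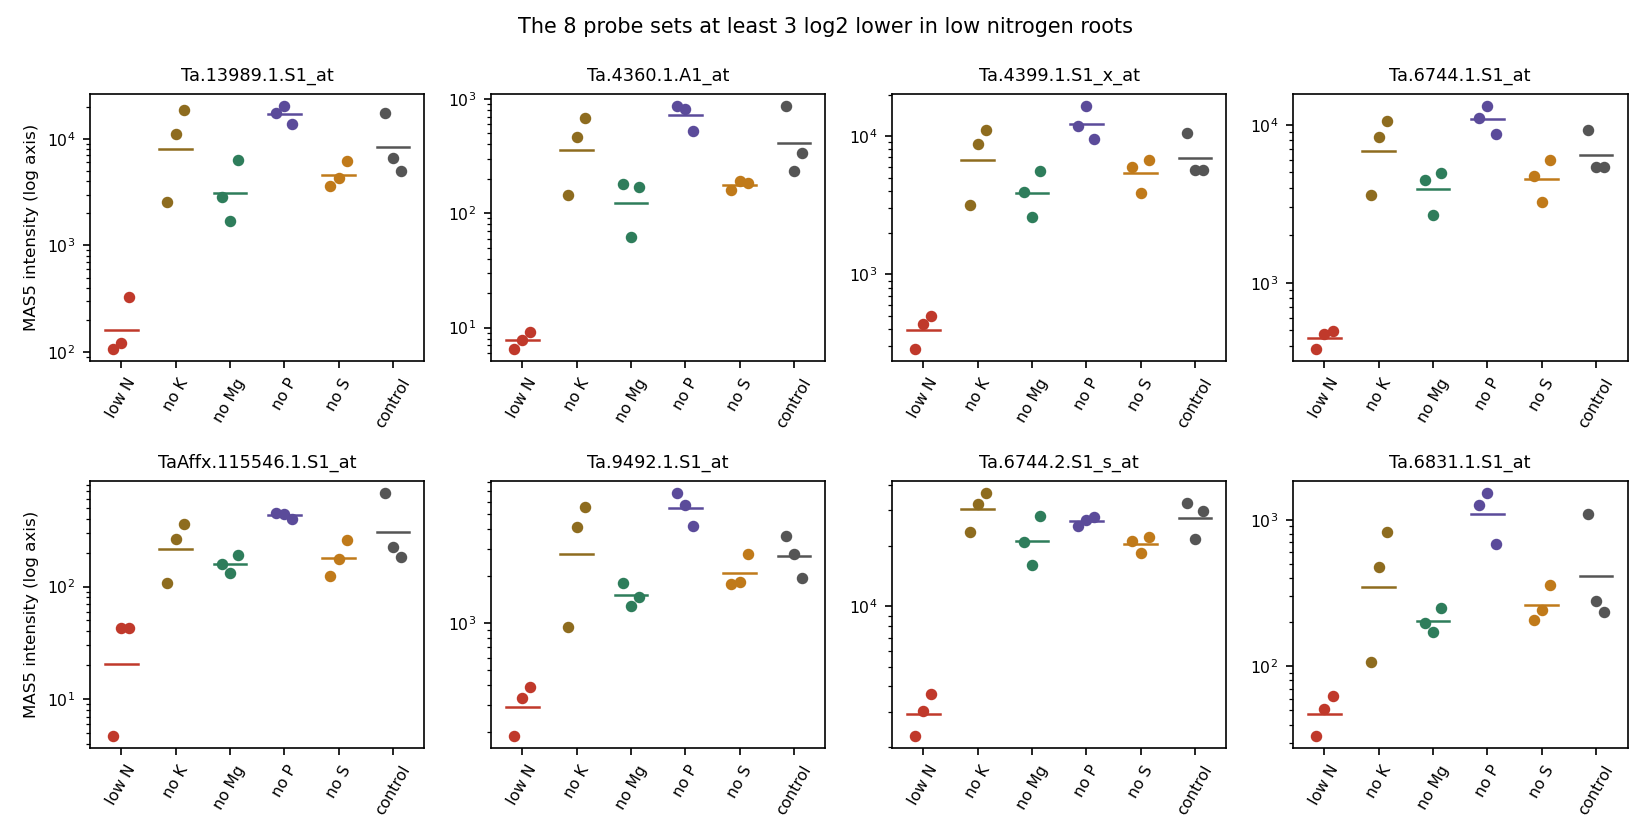
MAS5 intensity (log axis) of the 8 probe sets that were at least 3 log2 lower in low nitrogen roots, 1 point per array, with a line at the mean of the log2 values of each group of 3. Low nitrogen (left) lies below all other arrays in every panel, and no phosphate has the highest line in all panels except that of Ta.6744.2.S1_s_at.

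The next 2 by size of difference were also highest without phosphate and lowest, among the other 5 groups, without magnesium. TaAffx.11942.1.A1_at gave 22.9, 55 and 49.3 under low nitrogen. The other groups gave 150.5, 341 and 584 without potassium, 136, 106 and 145 without magnesium, 819, 816 and 341 without phosphate, 262, 212 and 280.4 without sulfate and 729, 238 and 226 in the control. For TaAffx.111546.1.S1_s_at the low nitrogen arrays read 57.1, 103 and 77.7. Values elsewhere were 195, 652 and 761 (no potassium), 490.2, 304 and 509.8 (no magnesium), 1368, 1028 and 802 (no phosphate), 568, 381 and 502 (no sulfate) and 466, 550.1 and 394 (control). Their differences were -2.87 and -2.81 log2, and in both potassium array 1 was far below the other potassium arrays. In TaAffx.111546.1.S1_s_at, 1 low nitrogen array was below its own median intensity.

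The 5 brightest outside low nitrogen were Ta.6744.2.S1_s_at, Ta.18257.1.A1_x_at, Ta.21350.2.S1_at, Ta.13989.1.S1_at and Ta.28002.1.A1_at. Ta.18257.1.A1_x_at read 5832, 5768 and 5803 in low nitrogen roots. It read 17938, 21575 and 25386 without potassium, 12657, 11073 and 14152 without magnesium, 18276, 18377 and 18792 without phosphate, 14082, 12504 and 13785 without sulfate and 22022, 14334 and 19692 in the control. Its low nitrogen arrays spanned only 0.016 log2, the difference was -1.51 log2, and no potassium, no phosphate and the control lay above no magnesium and no sulfate without overlap. In low nitrogen roots Ta.28002.1.A1_at read 2789.9, 2251 and 2845. Readings elsewhere were 6191, 4706 and 5157 (no potassium), 8455, 7255 and 10625 (no magnesium), 8169, 10275 and 12230 (no phosphate), 7763, 9024 and 9608 (no sulfate) and 8325, 7042 and 5859 (control). Its difference was -1.57 log2, and the 3 no potassium arrays, with control array 3, were its lowest outside low nitrogen. In Ta.28002.2.A1_a_at, of the same cluster, the 3 no potassium arrays were likewise the lowest outside low nitrogen. Some further probe sets are described here that were picked after their values were seen. Ta.22712.1.S1_at gave 577, 547 and 565 under low nitrogen. The other groups gave 2218, 4218 and 5385 without potassium, 1920.3, 1366 and 1934 without magnesium, 4742, 6802 and 4372 without phosphate, 2209.9, 1721 and 2476 without sulfate and 5237, 2689.5 and 2802 in the control. Its difference was -2.41 log2. For Ta.23095.1.S1_at the low nitrogen arrays read 140.1, 142 and 131. Values elsewhere were 385, 1016 and 1442 (no potassium), 519, 383 and 549 (no magnesium), 1517, 1224 and 848 (no phosphate), 466, 486 and 575 (no sulfate) and 1738, 727 and 549 (control). Its difference was -2.40 log2, and control array 1 was its highest array of all. The sulfate-highest probe sets had another pattern, as in Ta.3581.2.S1_x_at. Ta.3581.2.S1_x_at read 182, 356 and 256 in low nitrogen roots. It read 1768, 1336 and 842 without potassium, 1119, 1068 and 1904 without magnesium, 443, 1850.2 and 1620.5 without phosphate, 2866, 1328 and 2024 without sulfate and 385, 1169 and 872 in the control. Its difference was -2.25 log2, and control array 1 and phosphate array 1 lay close to the highest low nitrogen array. Ta.15067.1.S1_at was one of those highest without potassium. In low nitrogen roots Ta.15067.1.S1_at read 2175, 2371 and 2518. Readings elsewhere were 6229, 7092 and 8040.0 (no potassium), 4817, 4590.1 and 6171 (no magnesium), 3541, 5651 and 5537 (no phosphate), 4809, 5219 and 5693 (no sulfate) and 5362, 4582 and 5345 (control). Its difference was -1.20 log2, and its 3 no potassium arrays were the highest of all 18. At the other end, Ta.14013.1.S1_at had a mean difference of -1.96 log2 but the smallest separation, with 59.9, 54 and 58.7 in low nitrogen roots, against 60.3 in potassium array 1.

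Among the 4 probe sets with a gene, 1 had an informative name. Ta.85.1.S1_at belongs to LOC543290, PsbP, also called OEE2, an extrinsic subunit of photosystem II that supports water oxidation in chloroplasts. Ta.85.1.S1_at gave 156, 142 and 127 under low nitrogen. The other groups gave 541, 495 and 308 without potassium, 458, 399 and 523 without magnesium, 174, 486 and 436 without phosphate, 822, 388 and 628 without sulfate and 218, 337 and 421 in the control. The low nitrogen mean was 141 ± 14.9, against 326 ± 102 in the control (SD, n = 3 each), and -1.55 log2 from the mean of the 15. Outside low nitrogen the replicates spread widely, and phosphate array 1 lay next to the low nitrogen arrays. A probe set of the same gene that was not chosen, TaAffx.120874.1.S1_x_at, also had all low nitrogen arrays below the other 15 (-1.58 log2) but averaged 155 there, under the floor.

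The other 3 genes carry only a running number. Ta.27793.2.S1_x_at (LOC543448) differed by -2.20 log2. For Ta.27793.2.S1_x_at the low nitrogen arrays read 167, 291 and 182. Values elsewhere were 1289, 917 and 613 (no potassium), 919.9, 886 and 1287 (no magnesium), 388, 1559.5 and 1272 (no phosphate), 2066, 874 and 1483 (no sulfate) and 432, 931 and 726 (control). As with PsbP, sulfate array 1 was its highest array and phosphate array 1 its lowest outside low nitrogen. Ta.21350.2.S1_at (LOC543150) differed by -1.72 log2. Ta.21350.2.S1_at read 3802, 3435 and 7564 in low nitrogen roots. It read 16505, 19058 and 24470 without potassium, 12171, 8513 and 16287 without magnesium, 15316, 15971 and 13505 without phosphate, 13906, 11561 and 17406 without sulfate and 16555, 16589 and 17390 in the control. Low nitrogen array 3 stood well above the other low nitrogen arrays here, and magnesium array 2 was not far above it. Ta.8228.1.S1_at (LOC543097) was close to the size limit, at -1.03 log2. In low nitrogen roots Ta.8228.1.S1_at read 154, 114 and 141. Readings elsewhere were 226, 238 and 352 (no potassium), 312, 298 and 268 (no magnesium), 269, 189 and 229 (no phosphate), 205, 344 and 446 (no sulfate) and 249, 357 and 263 (control).

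The other 5 groups, which the rule treated as 1 pool of 15 arrays, were not level. The rule bounded the lowest of these arrays and their mean, so it also limited how they could spread, and the shares given for all tested probe sets come from probe sets not chosen in that way. No phosphate had the highest mean in 37 of the 84 (44%, against 29.3% of tested probe sets), no potassium in 22 (26.2%, against 18.5%), no sulfate in 20 (23.8%, against 17.8%), no magnesium in 5 (5.95%, against 17.7%) and the control in 0 (0%, against 16.7%). The lowest of the 5 was no potassium in 10 (11.9%, against 29.4% of tested), no magnesium in 24 (28.6%, against 9.64%), no phosphate in 15 (17.9%, against 25.4%), no sulfate in 10 (11.9%, against 13.3%) and the control in 25 (29.8%, against 22.3%). Measured against each other group, the median difference of the 84 in low nitrogen was -1.66 log2 from no phosphate, -1.62 from no potassium, -1.52 from no sulfate, -1.38 from no magnesium and -1.25 from the control.

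Most of the largest low nitrogen differences were among the probe sets highest without phosphate. The median difference of these was -2.06 log2, against -1.47 where no sulfate was highest, -1.38 where no magnesium was and -1.27 where no potassium was. Of the 23 probe sets at least 2 log2 lower, 19 had no phosphate as the highest group and 17 had no magnesium as the lowest of the 5. The spread between the 5 group means was also wider there, with a median range of 1.37 log2, against 0.86 where no sulfate was highest, 0.63 for no potassium and 0.60 for no magnesium. These classes were formed after the values were seen and carry no test.

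Whole groups were also compared array by array. All 3 no phosphate arrays lay above all 3 no magnesium arrays in 34 of the 84 (40.5%, against 9.69% of tested probe sets) and above all 3 no sulfate arrays in 33 (39.3%, against 9.15%). They lay above both groups together in 30 (35.7%, against 4.47%), and in 18 of the 23 probe sets at least 2 log2 lower (78.3%). The no phosphate arrays enter the mean behind that size cut, so the last share is tied to the cut. No share is given for tested probe sets with differences of that size. No phosphate was above the control without overlap in 19 (22.6%, against 13.6%), no sulfate above the control in 17 (20.2%, against 9.63%) and no potassium above the control in 13 (15.5%, against 5.61%). No magnesium went both ways, above the control in 10 (11.9%, against 8.59%) and below it in 14 (16.7%, against 4.49%). No phosphate was below the control in 2 (2.38%, against 11.5%) and no potassium below it in 1 (1.19%, against 6.67%). No sulfate was below the control in 12 (14.3%, against 6.66%) and no phosphate was below no sulfate in 5 (5.95%, against 9.6%).

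No potassium was above no magnesium in 7 (8.33%, against 8.73%) and below it in 4 (4.76%, against 14.4%). It was above no phosphate in 11 (13.1%, against 13.9%) and below it in 17 (20.2%, against 18.5%). Against no sulfate it was above in 12 (14.3%, against 11.1%) and below in 5 (5.95%, against 15.4%). No magnesium was above no phosphate in 5 (5.95%, against 11.4%), above no sulfate in 4 (4.76%, against 5.21%) and below no sulfate in 8 (9.52%, against 4.8%). All 10 pairs of these groups were computed, and pairs that share a group are not independent.

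Within groups, the same arrays were repeatedly low or high. In the 37 probe sets highest without phosphate, potassium array 1 was the lowest of its group in 35, magnesium array 2 in 30 and phosphate array 3 in 30, while control array 1 was the highest control in 29. Over all tested probe sets, by comparison, potassium array 1 was lowest in 40.2%, magnesium array 2 in 37.8%, phosphate array 3 in 31.8%, and control array 1 highest in 31.3%. The 20 probe sets highest without sulfate had another order: phosphate array 1 was the lowest of its group in 16, sulfate array 2 in 15 and control array 1 in 13. Over all tested probe sets these arrays were lowest in 33.6%, 33.3% and 35.3%. Sulfate array 1 was the highest of its group in 13, against 33.7% of tested probe sets. Sulfate array 1 was the highest of all 15 arrays in 11 of these 20, PsbP and LOC543448 among them. The group means of these classes thus rest on samples of the same group that differed from each other, and the part of those single samples was not tested.

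Whether any of the 84 changed under the other deficiencies was tested with limma, in a fit of group means to all 18 arrays adjusted with the Benjamini-Hochberg method over the 34255 tested probe sets. The contrasts compare groups other than low nitrogen and share the control arrays. The fit still takes part of its error estimate from the low nitrogen arrays, and the rule used the lowest and the mean of the other 15 arrays, so the calls are not independent of the choice; a fit of those 15 arrays alone, added after the data were seen, is given after them. No phosphate roots had 10 probe sets higher than the control at an adjusted p under 0.05 (11.9%, against 4.19% of tested probe sets called higher) and 0 lower (against 5.32% called lower), and the median difference of the 84 was 0.40 log2, against 0.05 over all tested. No potassium roots had 3 higher (3.57%, against 0.14%) and 0 lower (against 0.0642%), with a median of 0.14, against -0.02. No magnesium roots had 2 higher (2.38%, against 0.0525%) and 0 lower (against 0.00876%), with a median of 0.06, against 0.04. At an unadjusted p under 0.05 by limma, no magnesium had 8 higher and 12 lower, no potassium 17 and 4, and no phosphate 29 and 1. The shares over all tested probe sets are not given for these unadjusted counts. No sulfate roots had 0 called by limma (against 0.0175% higher and 0% lower), with a median of 0.13, against 0.04, and at an unadjusted p under 0.05 it had 19 higher (against 8.07% of tested probe sets) and 9 lower (against 5.23%). Without control array 2 it had 3 called, and the share over all tested probe sets is not given for that fit. The mean of these 4 deficiencies exceeded the control in 2 (2.38%, against 0.105%) and was below it in 0 (against 0.0467%). Fitted on the 15 arrays outside low nitrogen, limma called 5 higher without phosphate (5.95%, against 3.16% of tested), 1 without potassium (1.19%, against 0.0642%), 0 without magnesium (against 0.0146%), 0 without sulfate (against 0.0204%) and 0 for the mean of the 4 deficiencies (against 0.035%), with 0 lower in each.

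**Figure D3:**
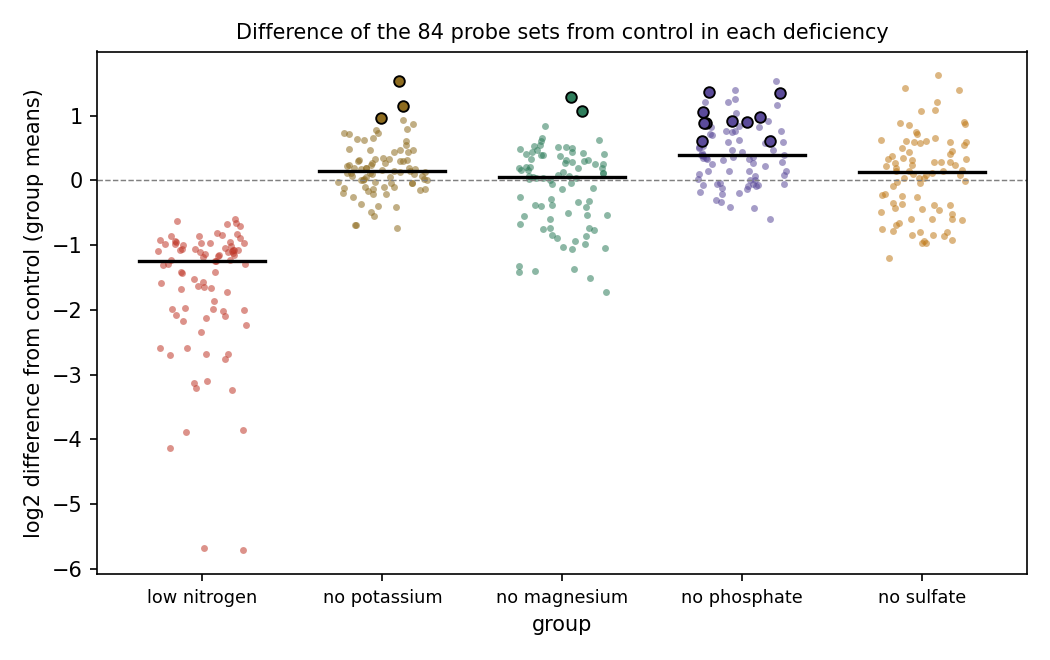
Difference of each of the 84 probe sets from the control in each deficiency, in log2 of group means, with a black line at the median and dark-rimmed points for those called by limma in the fit of all 18 arrays. The low nitrogen points lie at or below -0.60; these values chose the probe sets and were not tested. The called points (3 for no potassium, 2 for no magnesium, 10 for no phosphate, 0 for no sulfate) all lie above 0.

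Of the 10 called without phosphate, the largest rises were those of Ta.24434.1.S1_at, Ta.17022.1.S1_at and Ta.21258.2.S1_at. Ta.24434.1.S1_at read 1093, 1079 and 776 without phosphate, against 772, 334 and 209 in the control. The rise was 1.36 ± 0.37 log2 (SE; limma, adjusted p = 0.032), although control array 1 reached nearly the lowest no phosphate array. Ta.17022.1.S1_at read 2796, 2977 and 3387 without phosphate, against 874, 2336 and 824 in the control. The rise was 1.36 ± 0.38 log2 (SE; limma, adjusted p = 0.0367). Ta.21258.2.S1_at read 285, 255 and 333 without phosphate, against 104, 165 and 159 in the control. The rise was 1.05 ± 0.23 log2 (SE; limma, adjusted p = 0.0108). The other 7 rose by 0.60 to 0.98 log2. The count of 10 was 1 without phosphate array 3, 3 without phosphate array 1 or control array 3 and 5 without phosphate array 2, and it was 0 when only the 6 arrays compared were fitted. In the fit of 15 arrays 4 of the 10 remained called, Ta.21258.2.S1_at, Ta.25609.1.S1_at, TaAffx.58690.1.S1_at and TaAffx.81843.1.S1_at, while Ta.24434.1.S1_at and Ta.17022.1.S1_at did not.

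Ta.12673.1.S1_at had the largest rise without potassium, 1.54 ± 0.26 log2 (SE; limma, adjusted p = 0.0248). Ta.12673.1.S1_at gave 748, 555 and 505 under low nitrogen. The other groups gave 2483, 3738 and 4254 without potassium, 1792, 1359 and 1310.4 without magnesium, 971, 1098 and 1347 without phosphate, 1069, 923 and 1499.8 without sulfate and 776, 1527 and 1351 in the control. All 3 no potassium arrays lay above the other 15. TaAffx.59596.1.S1_at rose in 3 of the deficiencies, by 1.07 ± 0.18 log2 without magnesium (limma, adjusted p = 0.0428), 0.96 ± 0.18 without potassium (limma, adjusted p = 0.0406) and 0.60 ± 0.18 without phosphate (limma, adjusted p = 0.0438). For TaAffx.59596.1.S1_at the low nitrogen arrays read 2349.9, 2798 and 2274. Values elsewhere were 5826, 7546 and 8578 (no potassium), 6275, 8093 and 9367 (no magnesium), 7257, 4557 and 5478 (no phosphate), 5348, 6085 and 5503 (no sulfate) and 4399, 3606 and 3256 (control). Every array of the 4 other deficiencies lay above every control array, so its level in the control was between that of low nitrogen and that of the rest. Ta.26108.1.A1_s_at rose by 1.29 ± 0.22 log2 without magnesium (limma, adjusted p = 0.048) and by 1.15 ± 0.22 without potassium (limma, adjusted p = 0.0489). Ta.26108.1.A1_s_at read 1279.9, 1275 and 1249 in low nitrogen roots. It read 4321, 4988 and 6106 without potassium, 4627, 5129.5 and 7466 without magnesium, 4499, 3001 and 3796 without phosphate, 3215, 4126 and 3167 without sulfate and 3441, 1968 and 1781 in the control. These were also the probe sets called for the mean of the 4 deficiencies, at 0.81 ± 0.14 log2 for TaAffx.59596.1.S1_at (limma, adjusted p = 0.0388) and 0.93 ± 0.18 for Ta.26108.1.A1_s_at (limma, adjusted p = 0.0486). In the fit of 15 arrays only the call of Ta.12673.1.S1_at without potassium remained among these, and every call of TaAffx.59596.1.S1_at and Ta.26108.1.A1_s_at against the control was lost. The 3 calls without potassium numbered 0 without control array 3, potassium array 2 or potassium array 3, and 1 without control array 2. The 2 calls without magnesium numbered 0 without control array 3, magnesium array 2 or magnesium array 3. The 2 calls for the mean of the 4 deficiencies numbered 0 without control array 3, potassium array 2 or 3, magnesium array 2 or 3, phosphate array 3 or any 1 of the sulfate arrays, and 1 without magnesium array 1 or phosphate array 1.

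Differences of any kind among the 5 groups other than low nitrogen were tested with limma's moderated F-test. It called 19 of the 84 (22.6%, against 7.68% of tested probe sets), with 54 at an unadjusted p under 0.05 (against 26.3% of tested). Fitted on the 15 arrays outside low nitrogen it called 13 (15.5%, against 4.67%), and 12 of the 19 were among them. The smallest adjusted p by limma's F-test was that of Ta.12673.1.S1_at (0.00506), followed by TaAffx.58690.1.S1_at (0.00663), Ta.18257.1.A1_x_at (0.00899), Ta.21258.2.S1_at (0.00902) and Ta.3186.1.A1_at (0.00983). Ta.4360.1.A1_at, with the second largest low nitrogen difference, was also called (limma's F-test, adjusted p = 0.0312), but not in the fit of 15 arrays, with no intensity trend, or without potassium array 2, magnesium array 2, any 1 of the phosphate arrays or sulfate array 1 or 3. Ta.13989.1.S1_at, with the largest difference, was not called. The called probe sets Ta.12673.1.S1_at, TaAffx.58690.1.S1_at, Ta.18257.1.A1_x_at, Ta.21258.2.S1_at, Ta.3186.1.A1_at, TaAffx.59596.1.S1_at, Ta.26108.1.A1_s_at and Ta.22712.1.S1_at kept this call under all 7 other settings of the fit and without each of the 15 arrays in turn. The count of 19 was 40 without potassium array 1 and 10, 11 and 12 without phosphate arrays 1, 2 and 3. The share of all tested probe sets called with these arrays left out is not given here, so the counts describe the 84 only.

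Other probe sets with the same cluster number or gene gave a further view of these transcripts. The 84 belonged to 78 clusters, of which 6 held a pair of them. Both members of each pair had to meet the rule. The low nitrogen differences of the 2 were -1.20 and -1.19 log2 in Ta.15067.1.S1_at and Ta.15067.1.S1_x_at, -1.75 and -1.72 in Ta.556.1.S1_at and Ta.556.1.S1_x_at, -1.59 and -1.42 in Ta.22831.1.S1_x_at and Ta.22831.1.S1_at, and -1.86 and -1.74 in Ta.8356.1.S1_s_at and Ta.8356.1.S1_at. They lay furthest apart in Ta.6744.1.S1_at and Ta.6744.2.S1_s_at (-3.77 and -3.09), and the pair in cluster Ta.28002 is described above. A further 56 probe sets that were not chosen shared a cluster or gene with a chosen one, and 43 of them passed the filter. By cluster alone, 26 of the 84 had a tested probe set of this kind. Of these 43, 41 (95.3%) had a lower mean in low nitrogen than in the other 15 arrays, against 48% of all tested probe sets that were not chosen. Their median difference was -0.78 log2, against 0.01 log2, 14 were at least 1 log2 lower and 10 had all low nitrogen arrays below the other 15. Of all wheat probe sets, tested or not and with the chosen ones included, 0.94% had all low nitrogen arrays below the other 15. The share at least 1 log2 lower is not given for tested probe sets that were not chosen. The 43 related probe sets can share probes or a transcript with the chosen ones, so they are no independent measurement and were not tested.

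**Figure D4:**
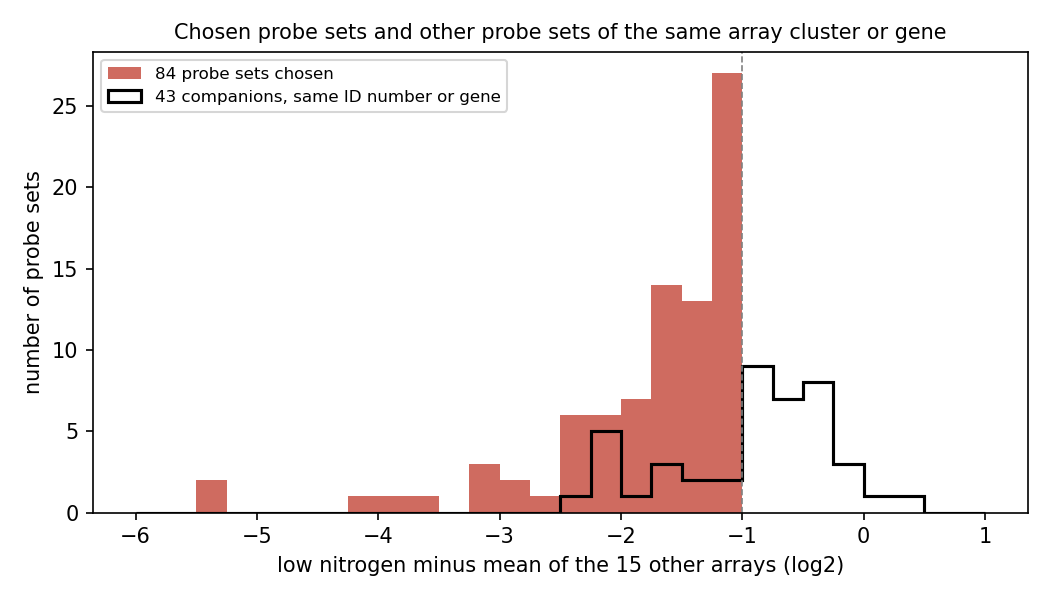
Number of probe sets by low nitrogen difference (log2, low nitrogen minus the mean of the other 15 arrays), for the 84 chosen probe sets (filled) and for 43 tested probe sets of the same cluster or gene that were not chosen (outline). The dashed line marks the rule's limit of -1.0; 41 of the 43 lie below 0 and 14 at or below -1.0.

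Related probe sets did not always follow. In cluster Ta.27751, the chosen Ta.27751.7.A1_x_at was -2.31 log2 in low nitrogen and Ta.27751.3.S1_at -2.08, while Ta.27751.1.S1_at was at -0.05 and Ta.27751.5.S1_at at 0.28. For LOC543150, the second probe set, Ta.30711.1.S1_x_at, was at -0.53, against -1.72 for Ta.21350.2.S1_at. For LOC543448, TaAffx.6140.1.S1_s_at was at -0.43, against -2.20 for the chosen Ta.27793.2.S1_x_at. Identifiers that end in _x_at, _s_at or _a_at mark probe sets able to bind more than 1 transcript, such as the homoeologous copies of a gene in hexaploid wheat. These endings made up 14, 7 and 2 of the 84 (16.7%, 8.33% and 2.38%), against 14.8%, 6.01% and 8.86% of tested probe sets.

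The sampled tissue and its possible neighbours were read from 3 lists of marker genes. The annotation names too few genes of these kinds for a full check. Of the leaf list, 4 genes and 11 tested probe sets were measured, 1 of them the chosen PsbP probe set. In low nitrogen roots 3 of the other 10 were lower than the equally weighted mean of the other 5 groups (4.19% of tested probe sets were called lower) and 0 were higher (4.41%). TaAffx.120874.1.S1_x_at, the second PsbP probe set, was lower by 1.58 ± 0.27 log2 (-1.58 in low nitrogen minus the rest; SE; limma, adjusted p = 0.00294), and shares its gene with a chosen one. All 3 of its low nitrogen arrays read below their array's median intensity, with a mean of 49.1, so this signal cannot be separated from background and the size of the difference is uncertain. Ta.841.1.S1_a_at, PsbO, another extrinsic subunit of photosystem II, averaged 199 ± 19.4 in low nitrogen roots, against 326 ± 150 in the control and up to 675 ± 284 without sulfate (SD, n = 3 each), a difference of -1.07 ± 0.30 log2 (SE; limma, adjusted p = 0.0367). TaAffx.128896.17.S1_s_at, matched to rbcL, the large subunit of Rubisco encoded in the chloroplast genome, was at -1.31 ± 0.36 log2 (SE; limma, adjusted p = 0.0321). Its low nitrogen mean was 46.9, with 2 of the 3 arrays below their median intensity, so the same limit holds. The brightest rbcL probe set, Ta.24976.1.S1_x_at, was at -0.21 ± 0.09 (limma, adjusted p = 0.178).

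Of 33 leaf probe sets named, 11 passed the filter, and their summed intensity was 33289 to 38992 in low nitrogen roots. It was 42693 to 50368 without potassium, 36862 to 47198 without magnesium and 29715 to 41391 without phosphate. Without sulfate it was 37354 to 44941, and in the control 37382 to 47707. Most of the sum came from the rbcL probe sets Ta.24976.1.S1_x_at and TaAffx.128414.1.A1_x_at, neither of them called. Their low nitrogen means were 19180 and 15300, against 199 for PsbO. The sum thus says little about the other genes of the list. The part of leaf or shoot material in the differences of the 84 was not tested. The root list held 3 genes and 6 tested probe sets, among them the plasma membrane proton pump ha1 and the malate channel ALMT1-1. By limma, 0 of 6 were called. The third gene, PER1, was at 0.59 and -0.09 log2. The annotation does not give the role of PER1, so its place as a root marker is uncertain. ALMT1-1 was at 0.94 ± 0.35 log2 (SE, limma, adjusted p = 0.101 for Ta.30659.1.S1_at). Of the grain list, 3 genes and 4 probe sets were tested and 2 were lower: Ta.10170.1.S1_at, wci, by 1.14 ± 0.32 log2 (-1.14; limma, adjusted p = 0.036) and Ta.15268.1.S1_x_at, gli-2, a gliadin gene, by 0.93 ± 0.28 log2 (-0.93; limma, adjusted p = 0.0464). Their low nitrogen means were 45 and 44.7, with 2 and 3 of the 3 arrays below the array median, so these sizes are uncertain too. Of 12 grain probe sets named, 4 passed the filter, and their summed intensity was low everywhere. It was 151 to 196 in low nitrogen roots, against 174 to 389 over the other 5 groups. The 5 calls over the lists numbered 2 without potassium array 2 or low nitrogen array 1, and 1 without low nitrogen array 2 or 3, and the call of the second PsbP probe set remained under each of these settings. The share of all tested probe sets called under these settings is not given. Leaving out 1 array at a time, the gli-2 call was lost in 15 of 18 fits, PsbO in 5, wci in 3 and rbcL in 3. The gli-2, PsbO and wci calls were also lost with no filter. PsbO was lost too with no intensity trend, and gli-2 with a block for replicate number.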

How the data were processed

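The deposited values were 1 linear intensity per probe set and array, made by the authors with the MAS5 algorithm in Affymetrix Expression Console, per the submitters' processing notes, which name no versions. The array held 61290 probe sets, of which the 111 control probe sets were left out. Every intensity was above 0, and log2 was taken with no added constant. Precision is limited by the number of arrays. The probe sets and gene lists were chosen with earlier results of these data known. The classes by highest group, the array order counts, the related probe sets and the joint count of no phosphate above no magnesium and no sulfate were chosen after values were seen. Some names that the grain and root lists matched, GLU1A and PRX1, were left out by hand after the annotation was read, PRX1 on its name alone. PER1 was kept in the root list, although the annotation does not give its role.

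A group-means model over the 18 arrays was fitted in R 4.3.3 using limma 3.58.1 (eBayes with an intensity trend), with 12 residual and 4.39 prior degrees of freedom; p-values are two-sided. The threshold for a call was an adjusted p of 0.05, by Benjamini-Hochberg. The 5 contrasts with control, the F-test and the low nitrogen contrast for listed genes were tested, the last with low nitrogen against the equally weighted mean of the other 5 groups. Probe sets named from tests were the 3 largest rises and falls per contrast, and the 10 largest low nitrogen differences, the 5 brightest probe sets and those with a gene were named as a description. The fit was tested on simulated data. Gene names came from the platform annotation, with 770 of 771 genes found in RefSeq's gene table (IWGSC CS RefSeq v2.1), used for names only. Alternatives were other normalizations, filters, variance models and sets of arrays. The series text gives 12 samples, while 18 were deposited and used. Counts and plots were made in Python 3.11.15, plots using matplotlib 3.10.9.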

Additional observations from a re-analysis of the deposited data

How the results depend on the processing

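The rule gave 84 probe sets, 85 after quantile normalization (81 shared), 89 with arrays centred on the 75th percentile, 80 with 16 added before log2, 97 with a floor of 100 and 44 with a difference of at least 1.5 log2; leaving out 1 array gave 82 to 111. The calls without potassium (3) numbered 1 after quantile normalization, 0 in a fit of only the arrays compared 0 with no intensity trend and 1 in a fit of the 15 arrays outside low nitrogen (0 to 4 leaving out 1 array). The calls without magnesium (2) numbered 0 with arrays centred, 1 with no filter, 0 with no trend, 0 with only the arrays compared and 0 with the 15 arrays (0 to 3 leaving out 1 array). The calls without phosphate (10) numbered 6 with no filter, 2 with no trend, 0 with only the arrays compared and 5 with the 15 arrays (1 to 15 leaving out 1 array, with 15 without control array 1). The calls without sulfate (0) numbered 0 to 3, with 3 without control array 2. The calls for the mean of 4 deficiencies (2) numbered 1 with arrays centred, 1 with no filter, 0 with no trend and 0 with only the arrays compared (0 to 3 leaving out 1 array). The F-test calls (19) numbered 9 with no trend and 13 with only the arrays compared, where 7 of the 19 were lost (10 to 40 leaving out 1 array). The listed genes called in low nitrogen (5) numbered 2 with no filter (1 to 6 leaving out 1 array): 2 without potassium array 2 or low nitrogen array 1, and 1 without low nitrogen array 2 or 3; a fit of only the arrays compared is there the same fit. The fit of the 15 arrays was added after the data were seen. Shares over all tested probe sets are given above only for the main fit and the fit of the 15 arrays. The other counts therefore cannot separate a change in the 84 from a change over all tested probe sets. With only 6 arrays the fit has fewer residual degrees of freedom; the cause of the other changes was not tested. Among single called probe sets, 539 recomputed values kept their call and 253 lost it. The F-test has no direction, and among the values of the other contrasts 0 turned direction.

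Replicate numbers gave no strong sign of pairing: of 45 same-numbered pairs between groups, 5 had deviations correlated above 0.1, over a range of -0.107 to 0.167. Low nitrogen and no phosphate were at 0.12, 0.167 and 0.0679 in replicates 1, 2 and 3. Pairs with different numbers were not compared, so pairing of the samples is not settled. With the replicate block the calls numbered 1 without potassium, 0 without magnesium, 8 without phosphate, 0 without sulfate, 0 for the mean of 4 deficiencies and 18 in the F-test.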
